A study of Arabidopsis thaliana with 16 samples.

Results

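The 45 genes described here are nuclear genes of Arabidopsis thaliana that encode the light-harvesting antenna and the photosystem subunits of the chloroplast, with their electron carriers. They were chosen by locus code from the 33296 named genes of the count table. They comprise 9 genes for the LHCB1, LHCB2 and LHCB3 proteins that form the trimeric antenna of photosystem II, 5 genes for its monomeric antenna proteins LHCB4, LHCB5 and LHCB6, and 6 LHCA genes for the antenna of photosystem I. A further 12 PSA genes encode photosystem I subunits and 9 PSB genes encode photosystem II subunits, and 4 genes encode electron carriers (PETC, PETE1, PETE2 and FNR1).

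Antenna proteins bind chlorophyll and pass absorbed light energy to the reaction centres of the photosystems, which drive electrons from water to ferredoxin across the thylakoid membrane. The antenna and many small photosystem subunits are made in the cytosol from nuclear genes and imported into the chloroplast, while the reaction centre cores are encoded in the plastid genome. In seedlings the nuclear genes are known to respond to light, to the circadian clock and to signals from the plastid, and the green hypocotyl expresses them along with the cotyledons.

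RNA was sequenced from hypocotyls of 6-day-old seedlings grown on plates in long days under white light, throughout at 22 °C or throughout at 28 °C. The 4 genotypes were the wild type Col-0, the T-DNA mutant brl3-2 of the brassinosteroid receptor gene BRL3, the mutant carrying BRL3-GFP under the SUC2 promoter of phloem companion cells (pSUC2-BRL3), and BRL3ox, a line expressing BRL3-GFP from the general 35S promoter. Each of the 8 groups had 2 libraries labelled as biological replicates, numbered 1 and 2. The p-values of the fitted comparisons rest on the spread between such libraries, estimated jointly over all 8 groups. A comparison of 2 groups is therefore not judged by the spread of those groups alone. The totals were 19013878 to 22791228 counts at 22 °C and 23021365 to 26563600 at 28 °C. BRL3 itself was at 10.5 to 28.8 CPM (counts scaled to a library of fixed size) in Col-0, 0.531 to 1.04 in brl3-2, 38.6 to 178.3 in pSUC2-BRL3 and 715.1 to 2478 in BRL3ox. Replicate 2 of BRL3ox at 22 °C stood apart from replicate 1 on the second principal component (-103 against -18.3), and replicate 1 of pSUC2-BRL3 at 28 °C was doubted in an earlier analysis of these data. Counts of called members in the comparisons that use these libraries are also given without the 2 doubted libraries, in the text or in the closing section. They are also given for comparisons that do not use these libraries. There only what the fit shares over all groups, such as the spread and the scaling, can change.

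Several members are near copies of each other, so their sequences are shown first. The lines below give the first 60 coding bases of the 5 LHCB1 copies from the TAIR10.1 assembly of RefSeq, 5′ to 3′. Capitals mark bases that differ from LHCB1.1.
LHCB1.1: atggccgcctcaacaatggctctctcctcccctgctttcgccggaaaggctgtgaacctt
LHCB1.2: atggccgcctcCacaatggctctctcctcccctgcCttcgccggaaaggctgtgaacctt
LHCB1.3: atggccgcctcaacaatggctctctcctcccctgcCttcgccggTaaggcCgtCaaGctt
LHCB1.4: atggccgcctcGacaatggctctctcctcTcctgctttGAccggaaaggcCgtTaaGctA
LHCB1.5: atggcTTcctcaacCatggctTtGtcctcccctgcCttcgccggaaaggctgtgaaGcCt
Over the whole coding sequence LHCB1.1 was 95.6% identical to LHCB1.2 and 96.1% identical to LHCB1.3. Even so, no more than 4.4% of the 100-base windows of any LHCB1 copy occurred elsewhere in the genome, against 10.7% for LHCB2.1 and 13.7% for LHCB2.2. Counts of these close copies are uncertain to the extent that reads from such windows were shared or dropped.

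LHCB1.5 (AT2G34420, minus strand of chromosome 2, bases 14522524 to 14523568) had 0 counts in every library and entered no test. A floor of 3 counts per library corresponds to 0.0892 to 0.194 CPM on the TMM scale of the other levels, a limit that covers counting error only. Its exons lay entirely under exons annotated on the opposite strand. Among 338 protein-coding genes placed in this way, 322 (95.3%) had no count in any library, against 7.52% of 7285 genes with partly overlapped exons and 13.0% of 19820 without overlap. Of the other members, LHCB2.3 was overlapped over 40.6% of its exonic bases, PSAE1 over 34.1%, PSAH1 over 53.3% and PSAG over 61.4%. The strand setting used for counting is not given in the sources used here, so levels of these overlapped genes are uncertain.

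The LHCB2 and LHCB4 families held the copies whose responses to warmth differed most in size, and the 250 bases before each gene start are shown for that reason. They are from TAIR10.1, read 5′ to 3′ on the gene's strand. Capitals mark 4 motifs searched on both strands, namely the G-box CACGTG, the I-box GATAAG, the letters CCAATC and the evening element core AATATCT. LHCB2.1 (chr2:1824481-1824730) and LHCB2.2 (chr2:1800473-1800722) lie on the minus strand of chromosome 2, and LHCB2.3 (chr3:10255656-10255905) lies on the plus strand of chromosome 3.
LHCB2.1: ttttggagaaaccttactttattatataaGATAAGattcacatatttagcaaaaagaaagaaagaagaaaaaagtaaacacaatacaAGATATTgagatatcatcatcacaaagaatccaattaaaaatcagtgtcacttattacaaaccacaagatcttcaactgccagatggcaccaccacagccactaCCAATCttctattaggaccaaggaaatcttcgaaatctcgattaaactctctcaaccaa
LHCB2.2: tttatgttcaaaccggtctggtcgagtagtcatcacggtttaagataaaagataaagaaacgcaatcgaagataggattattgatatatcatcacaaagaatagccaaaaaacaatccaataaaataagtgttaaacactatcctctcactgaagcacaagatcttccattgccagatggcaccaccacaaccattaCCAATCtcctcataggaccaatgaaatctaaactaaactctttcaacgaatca
LHCB2.3: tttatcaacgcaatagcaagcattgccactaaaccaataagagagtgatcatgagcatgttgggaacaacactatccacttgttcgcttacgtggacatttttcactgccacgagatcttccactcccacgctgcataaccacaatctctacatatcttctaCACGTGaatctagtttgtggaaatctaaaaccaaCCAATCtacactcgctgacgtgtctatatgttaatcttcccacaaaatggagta
LHCB4.1 (chr5:208616-208865), LHCB4.2 (chr3:2717307-2717556) and LHCB4.3 (chr2:16745378-16745627) all lie on plus strands.
LHCB4.1: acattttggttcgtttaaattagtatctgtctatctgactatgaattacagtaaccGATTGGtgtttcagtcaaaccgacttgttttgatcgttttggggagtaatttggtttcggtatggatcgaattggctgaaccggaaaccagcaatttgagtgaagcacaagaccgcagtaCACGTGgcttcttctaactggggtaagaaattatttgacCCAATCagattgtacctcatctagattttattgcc
LHCB4.2: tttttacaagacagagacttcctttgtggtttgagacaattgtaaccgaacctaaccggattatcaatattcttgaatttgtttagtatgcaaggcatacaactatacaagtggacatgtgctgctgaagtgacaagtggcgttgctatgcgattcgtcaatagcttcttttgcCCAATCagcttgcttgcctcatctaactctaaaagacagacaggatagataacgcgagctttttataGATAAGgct
LHCB4.3: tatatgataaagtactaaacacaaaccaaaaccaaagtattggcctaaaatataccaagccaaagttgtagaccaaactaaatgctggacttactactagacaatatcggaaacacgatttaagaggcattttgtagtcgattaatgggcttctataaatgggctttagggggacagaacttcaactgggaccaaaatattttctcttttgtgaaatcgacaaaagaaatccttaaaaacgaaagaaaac
CCAATC stood in the promoters of all 3 LHCB2 copies, at -59, -53 and -54 bases from the gene start. LHCB2.3 alone of the 3 held a G-box, at -88, and LHCB2.1 alone held an I-box, at -221, and the evening element core, at -163. LHCB4.1 held a G-box at -74 and CCAATC at -194 and -35, LHCB4.2 held CCAATC at -76 and an I-box at -9, and LHCB4.3 held none of the 4. Over the 45 members, CCAATC occurred in 13 promoters (28.9%, against 10.2% of 27443 promoters in the genome) and the I-box in 12 (26.7% against 12.3%). The G-box occurred in 8 (17.8% against 6.49%) and the evening element core in 5 (11.1% against 10%). These are letter matches and were not tested.

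The members took a large share of the messenger RNA in the hypocotyl. At 22 °C the Col-0 libraries gave 13.0% and 15.4% of all counts to them, the mutant 18.4% and 16.1%, the phloem line 19.1% and 20.9% and BRL3ox 19.8% and 24.4%. At 28 °C the shares were 10.1% and 9.21% for Col-0, 10.3% and 8.95% for the mutant, 11.4% and 13.1% for the phloem line and 9.42% and 9.04% for BRL3ox. Every 28 °C library lay below both 22 °C libraries of its genotype. The LHCB1 copies supplied 32.7% to 38.4% of the members' counts at 22 °C and 24.7% to 32.9% at 28 °C.

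**Figure D1:**
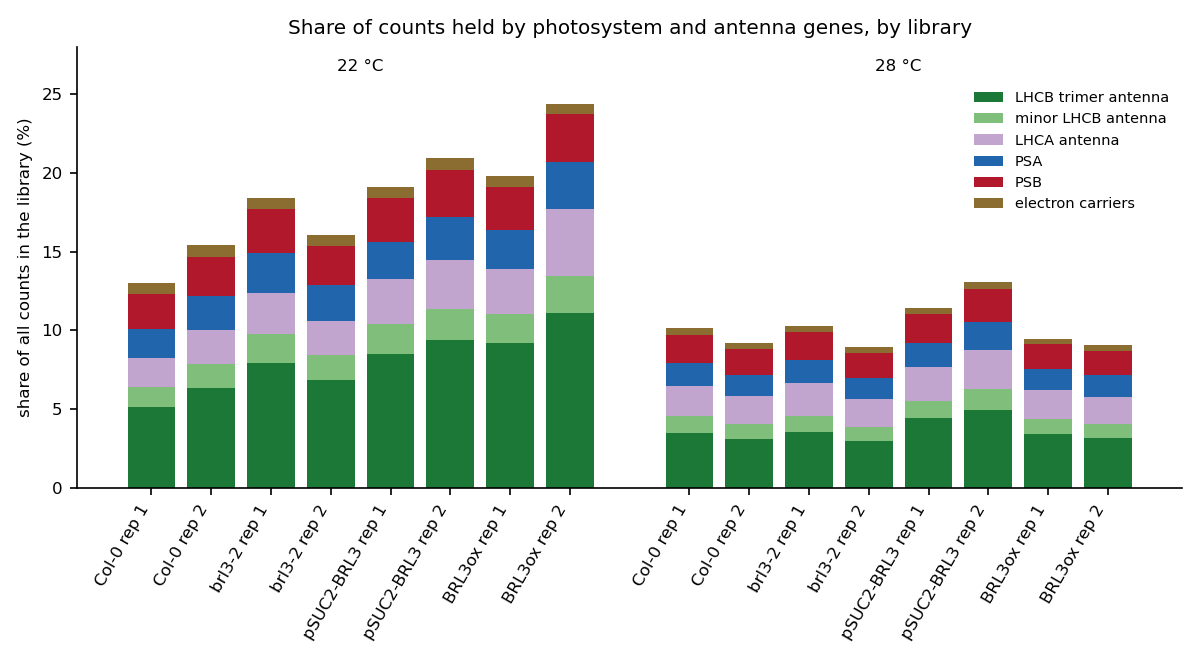
Share of each library's counts taken by the members, in percent of all counts, as stacked bars by role class for the 16 libraries. At 22 °C the bars reach between 13.0% and 24.4%, at 28 °C between 8.95% and 13.1%.

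Per exonic length the members spanned a wide range of levels. At 22 °C LHCB1.3 averaged 33302 ± 7948 RPKM (CPM divided by exonic length in kilobases, SD, n = 8) and LHCB1.1 averaged 15455 ± 4063. These trimer genes were followed by LHCA1 at 8664 RPKM, LHCB1.4 at 8381 and PSBR, a photosystem II subunit, at 7849. The lowest members were LHCB4.3 at 17.8 ± 4.65 RPKM and the rare antenna genes LHCA6 at 175.2 and LHCA5 at 192.9, whose proteins help attach photosystem I to the NDH complex. At 28 °C LHCB1.3 averaged 10075 RPKM and LHCB4.3 averaged 1.98.

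Warmth lowered nearly the whole set. Averaged over the 4 genotypes, all 44 tested members fell at 28 °C, with a median log2 change of -1.26, beside 33.5% of the 20505 tested genes that fell and an all-gene median of 0.03 (edgeR quasi-likelihood test, Benjamini-Hochberg adjusted p below 0.05). In Col-0 40 of the 44 fell (median log2 change -1.03, background 23.3% lower) and in brl3-2 42 fell (median -1.23, background 23.3%). In pSUC2-BRL3 44 fell (median -1.21, background 19.5%) and in BRL3ox 44 fell (median -1.71, background 19.3%). No member rose in any of them, and 40 fell in all 4 genotypes. The 4 exceptions in Col-0 were LHCA3, LHCA4, LHCB2.1 and LHCB2.2, and LHCA3 and LHCA4 were also the exceptions in brl3-2. The Col-0 count ranged from 28 to 41 when a library was left out. It was 28 without replicate 2 of Col-0 at 28 °C, and 26 when libraries were scaled by their totals.

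Scaling matters here because the composition of the libraries differed between temperatures. The TMM factors were 0.736 to 0.897 at 22 °C and 1.16 to 1.27 at 28 °C. With library totals in place of TMM, the median of all tested genes moved to 0.60 in the averaged warmth comparison and the members' median to -0.68, which is -1.28 relative to the all-gene median. In this scaling 44 members still fell in the averaged comparison. In Col-0, where the all-gene median moved to 0.55, LHCB2.1, LHCB2.2, LHCA3, LHCA4 and PETE1 changed sign. In bulk tissue, fewer cells of a type and less RNA per cell cannot be told apart.

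**Figure D2:**
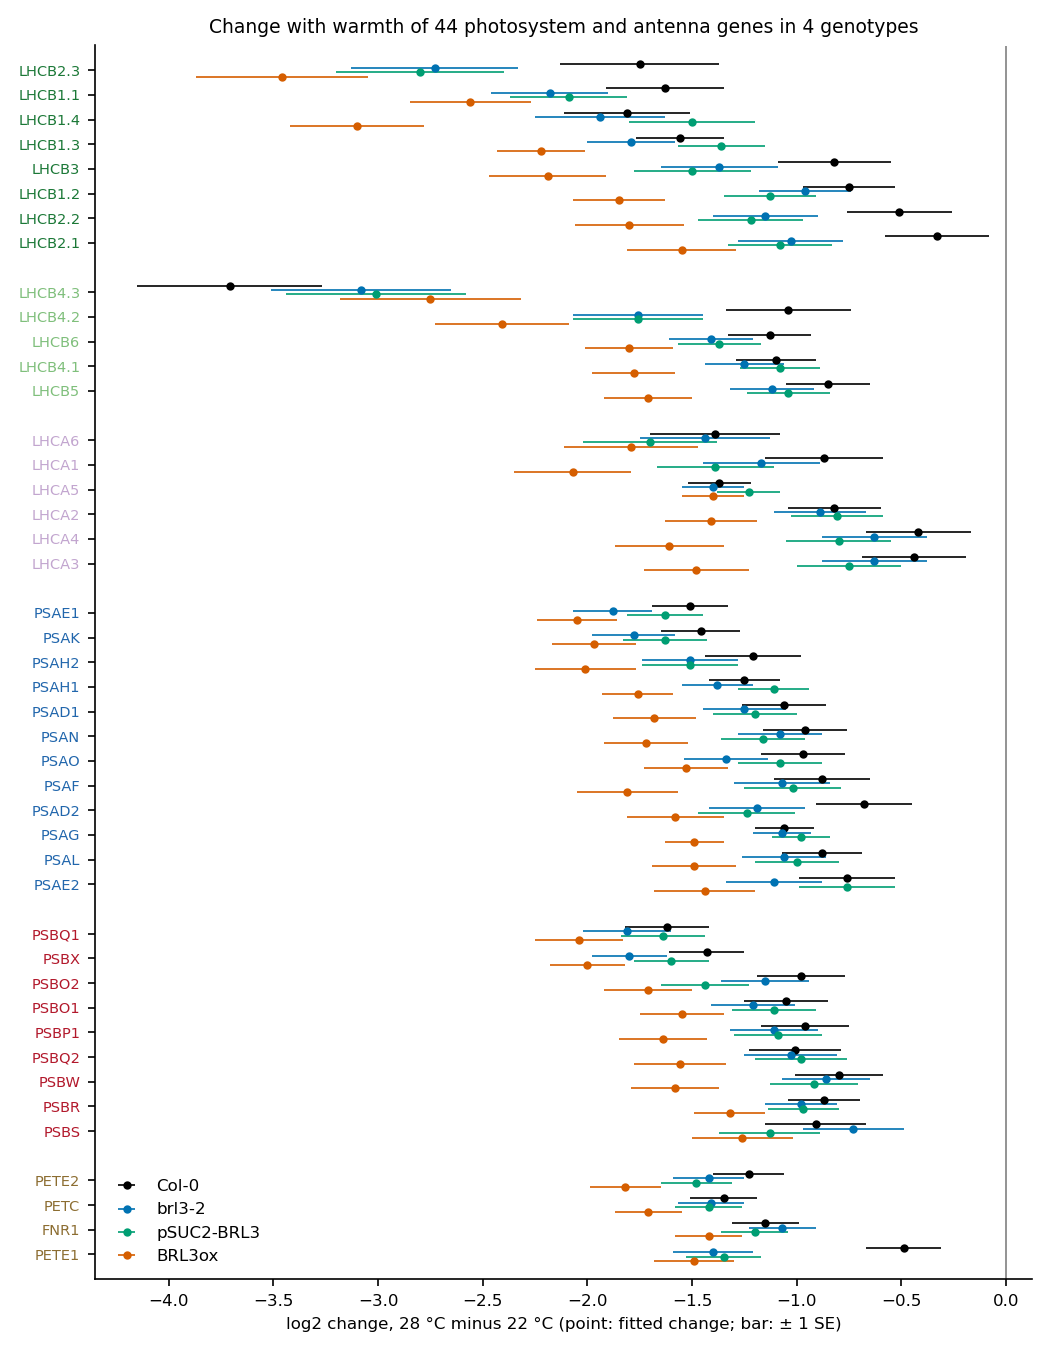
Fitted log2 change from 22 °C to 28 °C for the 44 tested members in each genotype, with bars of 1 standard error. All points lie below 0, and in BRL3ox the median is -1.71 against -1.03 in Col-0.

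Among the trimer antenna genes, 6 of 8 fell in Col-0 and 8 of 8 in the average, with a median log2 change of -1.60 in the average. LHCB1.3 (AT1G29930), also named CAB1, was at 26591 and 33875 CPM in Col-0 at 22 °C and at 11049 and 9523 at 28 °C. It was at 40649 and 32935 against 11304 and 9977 in brl3-2, 41245 and 48574 against 17592 and 17347 in pSUC2-BRL3, and 46916 and 56906 against 11762 and 10583 in BRL3ox. The temperatures did not overlap in any genotype, and the averaged log2 change was -1.73 (SE 0.10, adjusted p = 1.01e-07). Larger falls in the class were those of LHCB2.3 (-2.68), LHCB1.1 (-2.12) and LHCB1.4 (-2.09). The smallest were those of LHCB2.1 (-1.0), LHCB1.2 (-1.17) and LHCB2.2 (-1.17), with LHCB3 at -1.47.

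All 5 minor antenna genes, whose monomeric proteins link the trimers to the core, fell in each genotype. LHCB5 (AT4G10340), which encodes CP26, was at 5372 and 6272 CPM in Col-0 at 22 °C and at 3377 and 3089 at 28 °C. In brl3-2 its levels were 6878 and 6118 against 3214 and 2779, in pSUC2-BRL3 7828 and 8549 against 3466 and 4505, and in BRL3ox 7530 and 10944 against 2897 and 2753. Warm and cool libraries were fully separated, with log2 changes of -0.85 in Col-0 (SE 0.20, adjusted p = 0.00594) and -1.71 in BRL3ox (SE 0.21, adjusted p = 0.000166).

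LHCB4.3 (AT2G40100) showed the largest averaged fall of the tested members, although in BRL3ox LHCB2.3 fell more (-3.46 against -2.75). This gene for the CP29 type of antenna protein was at 36.8 and 30 CPM in Col-0 at 22 °C and at 2.00 and 3.11 at 28 °C. It was at 26.8 and 25 against 2.89 and 3.21 in brl3-2, 25.2 and 25 against 1.54 and 4.65 in pSUC2-BRL3, and 24.4 and 12.6 against 2.95 and 2.56 in BRL3ox. The averaged log2 change was -3.14 (SE 0.22, adjusted p = 2.59e-07), an 8.81-fold fall. Its sisters LHCB4.1 and LHCB4.2 had averaged log2 changes of -1.30 and -1.74, and LHCB6, for CP24, had -1.43, all called.

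Of the 6 photosystem I antenna genes, 4 fell in Col-0 and 6 in the average (median log2 change -1.17). LHCA1 (AT3G54890) was at 6928 and 8264 CPM in Col-0 at 22 °C and at 4455 and 3877 at 28 °C. It was at 10656 and 7823 against 4409 and 3783 in brl3-2, 11436 and 13994 against 4044 and 5655 in pSUC2-BRL3, and 10560 and 18577 against 3632 and 3325 in BRL3ox. Its levels did not overlap between temperatures in any genotype, and its averaged log2 change was -1.37 (SE 0.14).

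LHCA3 (AT1G61520) had the smallest averaged change of the tested members, although in Col-0 those of LHCB2.1 (-0.33) and LHCA4 (-0.42) were smaller. It was at 4329 and 5354 CPM against 3684 and 3474 in Col-0, 5816 and 4703 against 3671 and 3104 in brl3-2, 6659 and 7465 against 3896 and 4508 in pSUC2-BRL3, and 6522 and 11647 against 3412 and 3090 in BRL3ox. Warm libraries were again the lower ones, but the Col-0 change of -0.44 (SE 0.25) did not pass the test (adjusted p = 0.168), while the averaged change of -0.83 did (SE 0.12, adjusted p = 1e-04). LHCA4, whose protein pairs with LHCA1, and LHCA2, which pairs with LHCA3, had averaged changes of -0.87 and -0.98. The rare LHCA5 and LHCA6 fell by 1.35 and 1.58 on the log2 scale.

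All 12 photosystem I subunit genes fell in every genotype, with a median averaged log2 change of -1.23. PSAF (AT1G31330), whose protein docks plastocyanin on the lumenal side, was at 3536 and 4516 CPM in Col-0 at 22 °C and at 2299 and 2074 at 28 °C. It was at 5283 and 4229 against 2408 and 2110.2 in brl3-2, 4942 and 6246 against 2528 and 3008 in pSUC2-BRL3, and 5267 and 8392 against 1997 and 1910 in BRL3ox. The separation was complete, with log2 changes of -0.88 in Col-0 (SE 0.23, adjusted p = 0.0102) and -1.81 in BRL3ox (SE 0.24, adjusted p = 0.000267). PSAE1, for a stromal subunit at the ferredoxin docking site, and PSAK, for a small membrane subunit, fell most in this class, by 1.77 and 1.71 in the average. PSAE2, the other PSAE copy, fell least, by 1.01. Between them lay PSAH2 (-1.56), PSAH1 (-1.38), PSAD1 (-1.30), PSAN (-1.23), PSAO (-1.23), PSAD2 (-1.17), PSAG (-1.15) and PSAL (-1.11).

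All 9 photosystem II genes fell in every genotype, with a median averaged log2 change of -1.20. PSBO1 (AT5G66570), for the main protein that stabilises the manganese cluster of the oxygen-evolving complex, was at 6621 and 7572 CPM in Col-0 at 22 °C and at 3583 and 3255 at 28 °C. It was at 8819 and 6594 against 3519 and 3127 in brl3-2, 8361 and 10098 against 4055 and 4490 in pSUC2-BRL3, and 8141 and 10662 against 3282 and 3138 in BRL3ox. The lowest cool library lay above the highest warm one, and the averaged log2 change was -1.23 (SE 0.10, adjusted p = 7.5e-07). PSBQ1, for another extrinsic protein of that complex, and PSBX fell more, by 1.78 and 1.71. PSBO2 (-1.32), PSBP1 (-1.20), PSBQ2 (-1.15), PSBW (-1.04) and PSBR (-1.03) followed.

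PSBS (AT1G44575) differs in role, since its protein senses lumen acidity and switches the antenna to dissipate excess energy. It was at 1688 and 1835 CPM against 952 and 918 in Col-0, 1332 and 1199 against 753 and 773 in brl3-2, 1530 and 1552 against 507 and 902 in pSUC2-BRL3, and 1532 and 1079 against 508 and 582 in BRL3ox. It fell with the rest, by 1.01 in the average (SE 0.12, adjusted p = 1.53e-05), and its highest levels at 22 °C were in Col-0.

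All 4 carrier genes fell in every genotype. PETE2 (AT1G20340), the main plastocyanin gene, was at 5038 and 5876 CPM against 2440 and 2213 in Col-0, 5491 and 5067 against 2093 and 1850 in brl3-2, 5438 and 6124 against 1790 and 2352 in pSUC2-BRL3, and 5696 and 5198 against 1528 and 1547 in BRL3ox. The cool libraries of the 4 genotypes were close to each other for this gene, and its averaged log2 change was -1.49 (SE 0.08, adjusted p = 7.6e-08). PETC, for the Rieske protein of the cytochrome b6f complex, fell by 1.47, FNR1, for a ferredoxin-NADP reductase, by 1.21 and PETE1 by 1.18. In Col-0 PETE1 fell by only 0.49 (SE 0.18, adjusted p = 0.0455). This call was lost in 12 of 16 fits that left out a library, and with library totals its change there was 0.04.

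Copies within a family did not fall by the same amount. LHCB2.3 (AT3G27690) was at 1548 and 2044 CPM in Col-0 at 22 °C and at 584 and 482 at 28 °C, 3156 and 2476 against 437 and 412 in brl3-2, 3027 and 3831 against 247 and 736 in pSUC2-BRL3, and 2978 and 3253 against 282 and 286 in BRL3ox. LHCB2.1 (AT2G05100) was at 1697 and 2273 CPM against 1700.5 and 1450.4 in Col-0, where its libraries overlapped, and at 3220.2 and 4665 against 1372 and 1320.3 in BRL3ox. The fitted log2 change in Col-0 was -1.75 for LHCB2.3 (SE 0.38, adjusted p = 0.00353), while LHCB2.1 (-0.33) and LHCB2.2 (-0.51) did not pass the test. The difference between LHCB2 copies was itself not tested.

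For 7 pairs of copies the log2 ratio of their CPM was compared between temperatures with a two-sided exact test that permuted libraries within genotypes (1296 regroupings, smallest possible p 0.00154, Benjamini-Hochberg adjusted over the 7). The PSAE1 to PSAE2 ratio fell from 1.56 ± 0.20 to 0.79 ± 0.19 (SD, n = 8, exact p = 0.00154, adjusted p = 0.0108). The PSBQ1 to PSBQ2 ratio fell from -0.31 ± 0.43 to -0.96 ± 0.31 (n = 8, exact p = 0.00309, adjusted p = 0.0108). Both moved in the same direction in all 4 genotypes, so PSAE1 and PSBQ1 lost more than their partners. The PSBQ ratio of BRL3ox replicate 2 at 22 °C, a doubted library, was -1.28 and lay within the 28 °C range of -1.31 to -0.53. With libraries left out singly, the PSBQ difference ranged from -0.78 to -0.52.

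In the opposite sense, the LHCB4.1 to LHCB4.2 ratio rose from 0.27 ± 0.28 to 0.70 ± 0.19 (n = 8, exact p = 0.00772, adjusted p = 0.0135), in 3 of the 4 genotypes. The PETE1 to PETE2 ratio rose from -4.15 ± 0.24 to -3.85 ± 0.20 (n = 8, exact p = 0.00772, adjusted p = 0.0135), in all 4. The PSAH1 to PSAH2 ratio rose by 0.20 (n = 8, exact p = 0.0262, adjusted p = 0.0367), and its adjusted exact p reached 0.196 when a library was left out. For PSAD1 to PSAD2 the difference was -0.12 (exact p = 0.0941, adjusted p = 0.11) and for PSBO1 to PSBO2 it was 0.11 (exact p = 0.343, adjusted p = 0.343), and neither passed. The plot of copies by library shows these families side by side.

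**Figure D3:**
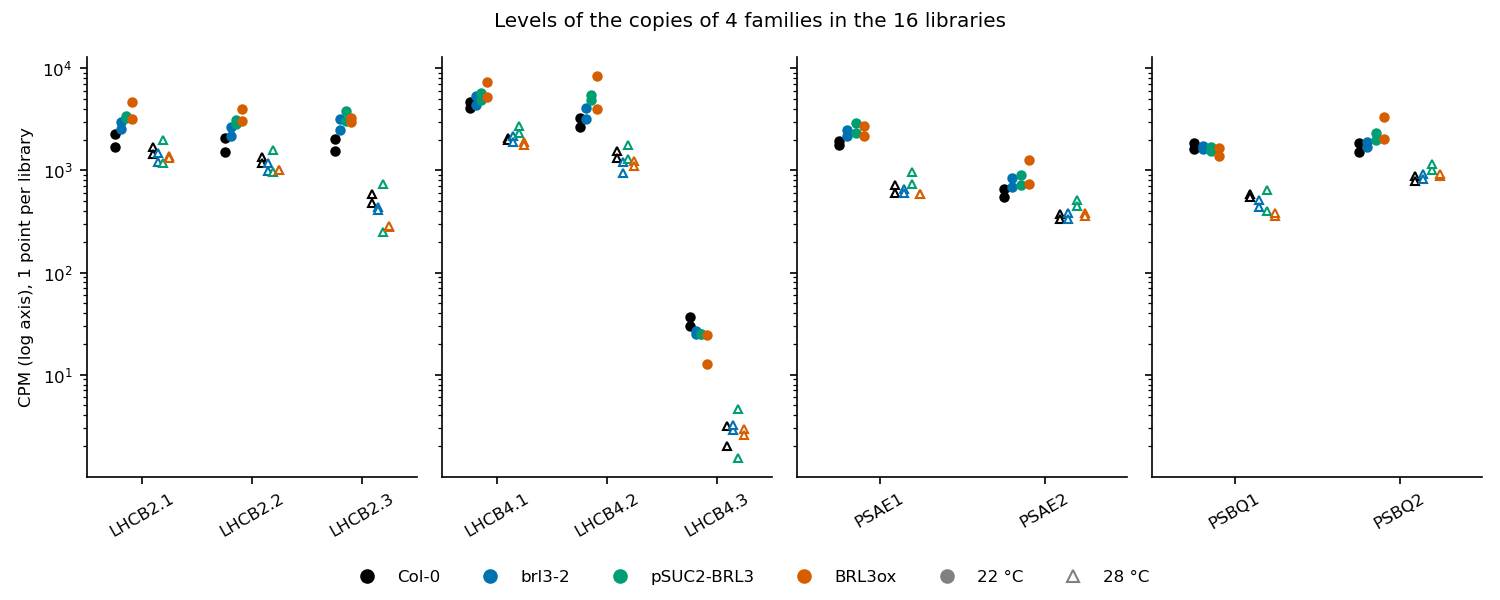
CPM in each library, on a log axis, for the LHCB2, LHCB4, PSAE and PSBQ copies by genotype, with filled symbols for 22 °C and open symbols for 28 °C. LHCB2.3 drops from 1548 to 3831 CPM at 22 °C to 247 to 736 at 28 °C, while LHCB4.3 lies far below its sisters throughout.

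At 22 °C the lines also differed from Col-0. In BRL3ox 19 of 44 tested members were higher than in Col-0 and none was lower, beside 15.6% of all tested genes that were higher and 30.2% that were called in either direction. The members' median log2 difference was 0.52, and 0.30 without the 2 doubted libraries. By class, 6 of 8 trimer genes (median 0.95), 2 of 5 minor antenna genes, 3 of 6 LHCA genes, 6 of 12 PSA genes, 2 of 9 PSB genes and 0 of 4 carrier genes were called. These comparisons share the Col-0 libraries with each other and with the warmth comparison.

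LHCB1.4 (AT2G34430) was at 5611 and 7058 CPM in Col-0 at 22 °C, 9895 and 12767 in pSUC2-BRL3, 12662 and 22786 in BRL3ox and 9856 and 7328 in brl3-2. BRL3ox lay above Col-0 by 1.48 on the log2 scale (SE 0.30, adjusted p = 0.00713). At 28 °C its levels were 1998 and 1607 in Col-0, 4260.2 and 3732 in pSUC2-BRL3, 2336 and 1807 in BRL3ox and 2602 and 1879 in brl3-2. The high position of BRL3ox at 22 °C was not seen at 28 °C, where it overlapped Col-0.

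LHCB1.2 (AT1G29910) was at 5413 and 6834 CPM in Col-0 at 22 °C, 9101 and 10758 in pSUC2-BRL3, 9756 and 14471 in BRL3ox and 7275 and 5896 in brl3-2, a log2 difference of 0.98 for BRL3ox (SE 0.22, adjusted p = 0.0097). At 28 °C it was at 3906 and 3371 in Col-0, 4243 and 4808 in pSUC2-BRL3, 3498 and 3219 in BRL3ox and 3644 and 3145 in brl3-2. LHCA4 (AT3G47470) was at 6151 and 7328 CPM in Col-0 at 22 °C, 10114 and 11077 in pSUC2-BRL3, 10028 and 17598 in BRL3ox and 7602 and 6378 in brl3-2, a log2 difference of 1.04 (SE 0.25, adjusted p = 0.0137). For both genes the transgenic lines lay above both Col-0 libraries at 22 °C, and brl3-2 overlapped Col-0.

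The BRL3ox difference was not uniform over the members. PETE2 (-0.00), PETC (-0.03) and FNR1 (-0.07) had fitted log2 differences near 0, and PSBS (-0.43) and LHCB4.3 (-0.85) had negative ones that did not pass the test. Between the replicates of BRL3ox at 22 °C, 36 of 44 members were higher in replicate 2, with log2 differences from -1.12 to 1.06 (median 0.40). Such one-sided counts also occurred in other groups. At 22 °C 43 members were higher in replicate 2 in Col-0, 43 in pSUC2-BRL3 and 0 in brl3-2, while in BRL3ox at 28 °C 20 were. The count of members called higher fell from 19 to 1 without replicate 2 of BRL3ox, LHCB1.4 (log2 difference 1.0, adjusted p = 0.0395), beside 6.08% of tested genes called higher in that fit. It fell to 0 without replicate 1 of Col-0 (1.61% of genes) and to 7 without replicate 2 of Col-0 (7.15%). It was 29, with 3 lower, without replicate 1 of BRL3ox (24.8% of genes higher). It was 6 without the 2 doubted libraries (7.49% of genes higher).

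In pSUC2-BRL3 at 22 °C the same general direction was seen with fewer calls. Only PETE1, a minor plastocyanin gene, was called, as 1 of 44 members, beside 5.05% of all genes higher and 10.6% in either direction. PETE1 (AT1G76100) was at 227 and 257 CPM in Col-0, 370.3 and 404 in pSUC2-BRL3, 328 and 329.8 in BRL3ox and 317 and 270.2 in brl3-2, and the log2 difference of pSUC2-BRL3 was 0.68 (SE 0.18, adjusted p = 0.0392). At 28 °C it was at 190.2 and 154 in Col-0, 121 and 182 in pSUC2-BRL3, 117 and 117 in BRL3ox and 115 and 108 in brl3-2. The call was lost in 12 of 16 fits that left out a library, with adjusted p from 0.0518 to 0.237. DESeq2 called 8 members and 18 had an unadjusted p below 0.05. The shares of all genes given above are edgeR calls after adjustment and do not apply to these counts. Neither of the 2 doubted libraries is in the groups compared here, and without them the PETE1 difference stayed at 0.68. The count of calls in that fit is given in the closing section. It differs from the main count through what the fit shares over all groups.

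The brl3-2 mutant was closer to Col-0 at 22 °C. With edgeR no member was called, beside 2.24% of all genes called. Of the members 0 had an unadjusted edgeR p below 0.05, beside 3808 of 20505 tested genes, and DESeq2 called 0. The median log2 difference was 0.15. Between pSUC2-BRL3 and brl3-2 at 22 °C edgeR called 0 members, beside 0.307% of all genes. In that comparison 4 members had an unadjusted p below 0.05 and DESeq2 called 0. Without the 2 doubted libraries 2 members were called for brl3-2 against Col-0, beside 16.4% of genes, and 8 for pSUC2-BRL3 against brl3-2, near the 17.8% of genes called in that fit.

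Counting libraries rather than calls, 34 of the 45 members had both BRL3ox libraries above both Col-0 libraries at 22 °C and 4 had both below, beside 27.8% and 33.8% of all tested genes. With replicate 1 of BRL3ox alone the counts were 35 above and 5 below, beside 37.3% and 43.4%. For pSUC2-BRL3 at 22 °C 34 members lay above and 2 below, beside 30.8% and 34.4% of tested genes. For brl3-2 at 22 °C the 12 above and 4 below stood beside 26.3% and 32.4%.

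At 28 °C the order was different for BRL3ox, with 0 members above Col-0 and 28 below, beside 30.8% and 31.4% of tested genes. For pSUC2-BRL3 at 28 °C 18 lay above and 1 below, beside 24.9% and 25.4%, and with replicate 2 of that line alone 41 lay above and 1 below, beside 40.9% and 40.1%. For brl3-2 at 28 °C 1 lay above and 16 below, beside 31.2% of tested genes either way.

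**Figure D4:**
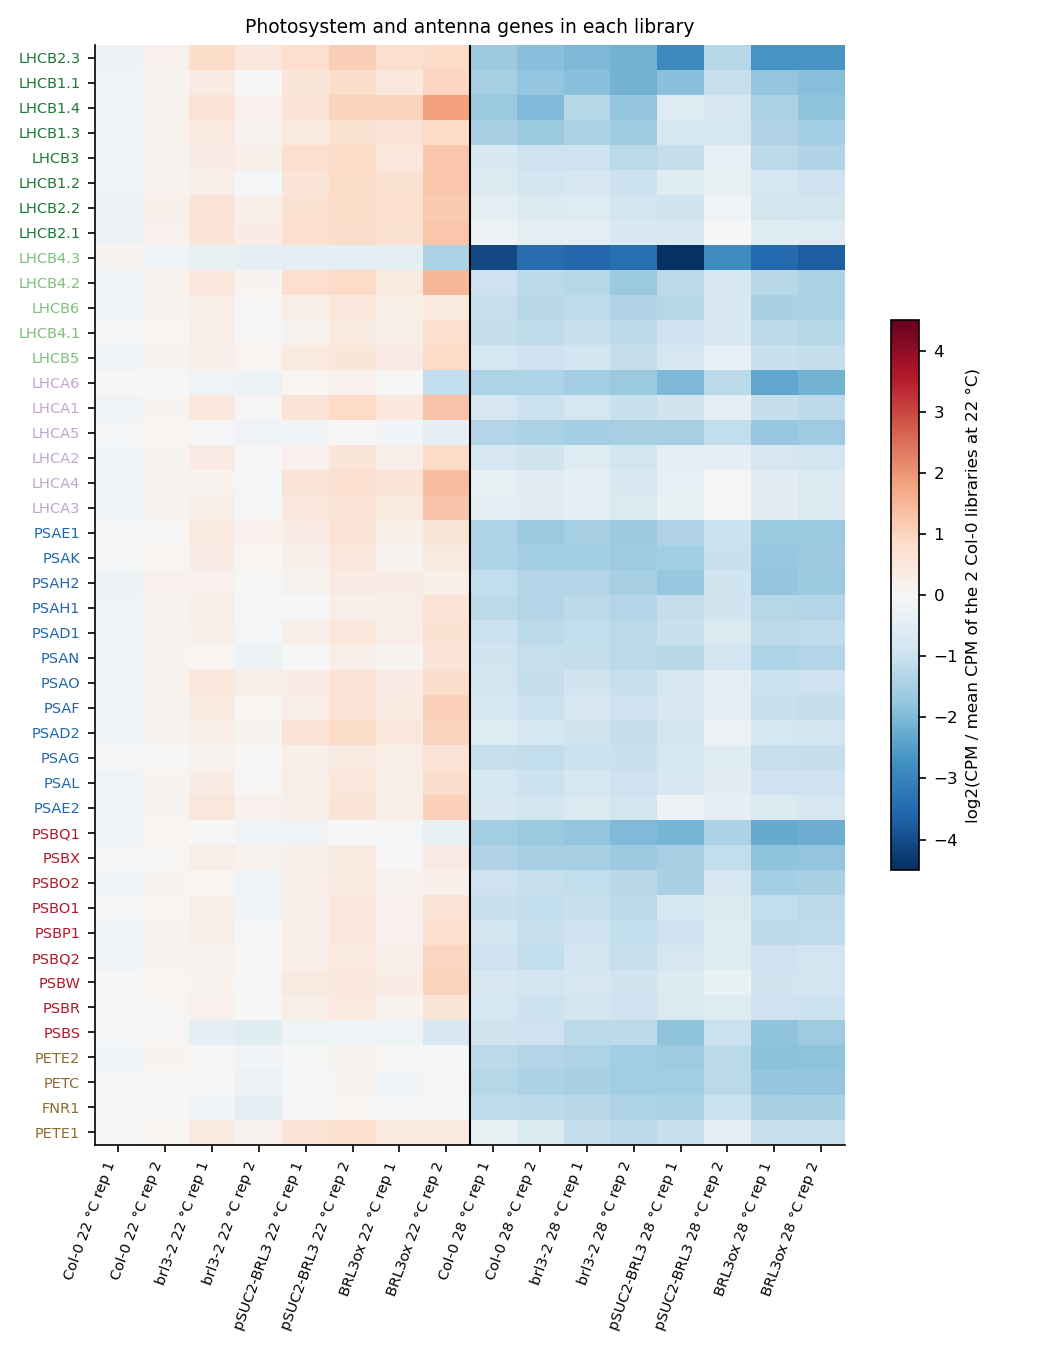
Log2 CPM of each tested member in each library relative to the mean CPM of the 2 Col-0 libraries at 22 °C, with members grouped by role class. BRL3ox replicate 2 at 22 °C holds the highest LHCB1.4 value (22786 CPM), and most cells of the 28 °C columns are below the reference.

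At 28 °C edgeR called 0 of 44 members in each comparison of lines. Here and in the interactions below, background is the share of all genes that edgeR called in either direction. It does not apply to unadjusted p or to DESeq2. For brl3-2 against Col-0, 1 member had an unadjusted p below 0.05 and DESeq2 called 1 lower (background 3.62%). For pSUC2-BRL3 against Col-0 these numbers were 3 and 2 (background 0.858%), and for pSUC2-BRL3 against brl3-2 they were 5 and 1 (background 1.61%). For BRL3ox against Col-0, 8 members had an unadjusted p below 0.05 and DESeq2 called 3 lower (background 2.07%), with a median log2 difference of -0.20. Without the 2 doubted libraries 10 members were lower in BRL3ox than in Col-0, beside 9.63% of genes lower in that fit, and 9 were higher in pSUC2-BRL3 than in brl3-2, beside 3.27% of genes higher.

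Whether the warmth response itself depended on the line was tested as an interaction. BRL3ox had the largest fall of the 4 genotypes in 42 of 44 members, and Col-0 had the smallest in 32. Without the 2 doubted libraries these counts were 40 and 20, and pSUC2-BRL3 then had the smallest fall in 23. The order of genotypes was not counted over all tested genes, and all members share the same libraries. These counts therefore do not set the members apart from other genes. The median difference in log2 change between BRL3ox and Col-0 was -0.67, and -1.25 among trimer genes. Even so, edgeR called 0 members in this test, beside 2.58% of all genes called. Unadjusted p was below 0.05 for 28 members and DESeq2 called 12 lower, counts to which that share does not apply. The smallest adjusted p belonged to PETE1 (-1.0, SE 0.26, adjusted p = 0.0626), LHCB2.2 (-1.29, SE 0.35, adjusted p = 0.0723) and LHCB3 (-1.38, SE 0.38, adjusted p = 0.0761). The count reached 29 without replicate 1 of BRL3ox at 22 °C (17.6% of genes lower in that fit) and 9 without the 2 doubted libraries (3.68% of genes lower).

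For brl3-2 against Col-0 the interaction gave 0 calls with edgeR (1 with unadjusted p below 0.05, DESeq2 1, background 0.878%). For pSUC2-BRL3 against Col-0 it also gave 0 (1 with unadjusted p below 0.05, DESeq2 1, background 1.95%).

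Other thylakoid and antenna import genes also fell under warmth. In the averaged comparison 33.5% of all tested genes were called lower and 69.3% in either direction. All 14 other thylakoid genes tested fell (median log2 change -1.25), among them PGR5 of cyclic electron flow (-1.37), the leaf ferredoxin FD2 (-1.48), PSB27 of photosystem II assembly (-1.62) and ATPG of the ATP synthase (-1.32). All 5 genes for import and assembly of antenna proteins fell (median -0.75). CPSRP54 was at -0.96, CPFTSY at -0.75, LTD at -0.69 and the gene listed as CAO (AT2G47450) at -0.94.

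The 10 plastid-encoded photosystem genes all fell in the average (median log2 change -2.11), beside 33.5% of all tested genes called lower. Among them psbB was at -3.41, petA at -3.72, psbE at -2.08 and psbC at -1.54. Plastid transcripts mostly lack the poly(A) tails by which mRNA kits select RNA. These plastid genes were also compared between each line and Col-0 at 22 °C. In BRL3ox 9 of 10 were lower than in Col-0 (median -1.94, beside 14.7% of all genes lower) while 19 members were higher. Without the 2 doubted libraries the median was -1.86. In pSUC2-BRL3 6 of 10 were lower (median -1.59, background 5.56%), also without those libraries. In brl3-2, where no member was called, 4 of 10 were lower (median -1.51, background 1.61%), and 6 without those libraries.

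Of 14 regulators, 8 fell and 2 rose in the averaged comparison (median log2 change -0.73), a share of 71.4% called that is near the 69.3% of all genes. The counts were 9 and 2 without the 2 doubted libraries. GLK1, a transcription factor known to activate antenna genes, was at 164 and 163 CPM in Col-0 at 22 °C and at 43.4 and 40.5 at 28 °C, and in pSUC2-BRL3 it was at 72.2 and 86.6 against 75.4 and 74.7. In brl3-2 it was at 125 and 123 against 49.6 and 45.2, and in BRL3ox at 92.9 and 63.6 against 44.6 and 56.7. Its averaged log2 change was -1.01 (SE 0.09, adjusted p = 1.37e-06), and in pSUC2-BRL3 the change was -0.08 (adjusted p = 0.739). HY5, a bZIP factor of light-grown development, changed by -1.14, and the plastid sigma factors SIG6 and SIG2 by -1.04 and -0.78. At 22 °C GLK1 was lower than in Col-0 in BRL3ox (-1.06, adjusted p = 0.00379) and pSUC2-BRL3 (-1.04, adjusted p = 0.00757). HY5 was also lower in both (-1.67, adjusted p = 0.00455, and -1.11, adjusted p = 0.034). In brl3-2 at 22 °C HY5 was at 20.6 and 18.1 CPM, against 34.4 and 26.8 in Col-0, and GLK1 too lay below both Col-0 libraries. The part of these regulators in the members' differences between lines was not tested.

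**Figure D5:**
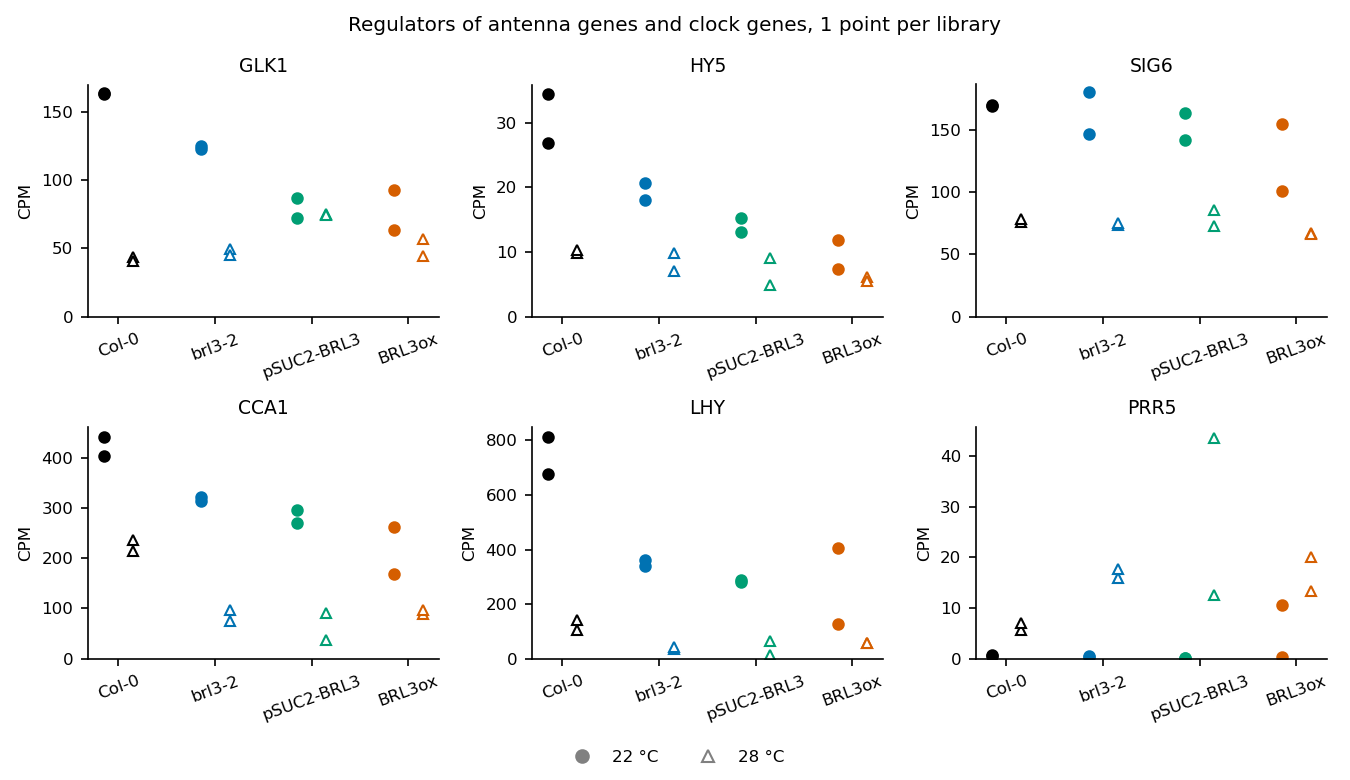
CPM of 3 regulators (GLK1, HY5 and SIG6) and 3 clock genes (CCA1, LHY and PRR5) in each library by genotype, with filled circles for 22 °C and open triangles for 28 °C. GLK1 in pSUC2-BRL3 is at 72.2 and 86.6 CPM at 22 °C and 75.4 and 74.7 at 28 °C, and LHY in BRL3ox replicates at 22 °C is at 405.6 and 125.6.

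Of 12 clock genes, 6 rose and 3 fell in the averaged comparison, or 75.0% beside 69.3% of all genes, and 7 rose and 3 fell without the 2 doubted libraries. The fitted log2 changes placed the morning genes LHY at -2.68 and CCA1 at -1.54, and PRR5 at 4.39 and ELF4 at 3.17. LHY was at 811 and 677 CPM in Col-0 at 22 °C, 288 and 281 in pSUC2-BRL3, 406 and 126 in BRL3ox and 363 and 341 in brl3-2. PRR5 was at 0.363 and 10.7 CPM in the BRL3ox libraries at 22 °C and at 43.7 and 12.5 in the pSUC2-BRL3 libraries at 28 °C, where replicates differed most. The labels do not give the hour of harvest for each library, and the part of clock phase in the members' changes was not tested.

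Markers of other tissues were read as summed levels, and no marker list for the hypocotyl itself was used. Leaf and cotyledon polarity genes summed to 247 to 293.7 CPM at 22 °C and 165.9 to 182.3 at 28 °C, without overlap, and 4 of 5 fell in the averaged comparison (FIL by 0.73, YAB3 by 0.81, YAB5 by 0.95 and AS1 by 0.35 on the log2 scale) while KAN1 rose. Phloem markers summed to 209.5 to 262.8 CPM at 22 °C and 152.1 to 192.8 at 28 °C, and guard cell markers to 56.7 to 102.1 and 47.9 to 70.2. Root markers summed to 4.21 to 18.2 CPM at 22 °C and 4.64 to 12.8 at 28 °C, with 3 of 5 genes below 1 CPM in every library, and shoot apex markers stayed at or below 8.75. Xylem markers summed to 20.7 to 41.1 and 24.9 to 48.4 CPM, and seed storage markers to 1.42 to 30.4 and 1.44 to 49.7. The part of these tissues in the fall of the members was not tested.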

How the data were processed

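The deposited table holds raw read counts per gene as the authors made them. Per the submitters' processing notes, FastQC 0.11.2, Trimmomatic 0.38, HISAT2 2.1, featureCounts 1.6.2, edgeR 3.34.1 and the TAIR10 genome were used. Per the labels' protocols the library kit was TruSeq Stranded mRNA. Gene annotation and strandedness of counting were not given in the sources used here. A line with no gene name held at most 0.0046% of counts and was left out, and 33011 of 33296 locus codes matched TAIR10.1.

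Counts of the 16 libraries were fitted together in edgeR 4.0.16 (R 4.3.3) with a coefficient for each of the 8 groups and TMM factors, leaving 8 residual degrees of freedom. Genes needed a count of about 10 in enough libraries and 15 in all, which left 20505. Tests were two-sided, with Benjamini-Hochberg adjustment over these and a threshold of 0.05. CPM are TMM-scaled, and RPKM use exonic length. DESeq2 1.42.0 was an alternative. Fits were tested on simulated data. Replicate numbers did not pair libraries over the groups as a whole (28 correlations of deviations, -0.294 to 0.267, 8 over 0.1). Between groups at 28 °C all values were positive, from 0.0512 to 0.267. Between groups at 22 °C they ran from -0.153 to 0.0715. The chi-square between replicates was 13.2 to 130 per gene, so none was a duplicate.

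The members and lists were chosen with earlier results of these data known. Values in every library are given for the most abundant member of each class, PSBS, the largest and smallest averaged warmth change, and up to 3 called members per line comparison. LHCB2.3 and LHCB2.1 were added after their values were seen.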

Additional observations from a re-analysis of the deposited data

Results flagged for a closer look

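Among the companion lists, 3 genes had warmth responses that differed from that of Col-0 by the interaction term, in 4 tests (edgeR quasi-likelihood test, adjusted over 20505 genes). Of all tested genes, 0.878% were called in this interaction for brl3-2, 1.95% for pSUC2-BRL3 and 2.58% for BRL3ox. The 4 calls come from lists of many genes and are not read as an excess over these shares. GLK1 fell by 1.96 on the log2 scale in Col-0 (SE 0.18, adjusted p = 3.2e-05) but not detectably in pSUC2-BRL3, a difference of 1.88 (SE 0.25, adjusted p = 0.00833) that was lost in 1 of the fits without a library. In BRL3ox the GLK1 response differed by 1.34 (SE 0.25, adjusted p = 0.0238), lost in 5 such fits.

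The plastid gene psbB was at 1894 and 1270.5 CPM in Col-0 at 22 °C and at 164.1 and 285 at 28 °C, against 2364 and 2370.4 and then 80.5 and 78.5 in brl3-2. Its response in brl3-2 differed from that in Col-0 by -2.08 (SE 0.41, adjusted p = 0.0468). This call and that of PHT1;4 below lie near the threshold. Whether fits without a library keep them was not examined. The phosphate transporter gene PHT1;4, used as a root marker, was at 15.2 and 16.8 CPM in Col-0 at 22 °C and at 4 and 4.6 at 28 °C, against 6.49 and 2.51 and then 6.04 and 4.67 in BRL3ox, a difference of 2.13 (SE 0.49, adjusted p = 0.0459).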

How the results depend on the processing

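The averaged warmth count of 44 members and the BRL3ox warmth count of 44 held under every alternative run. With libraries left out singly, calls ranged from 28 to 41 for warmth in Col-0, 38 to 44 in brl3-2 and 39 to 44 in pSUC2-BRL3. At 22 °C they ranged from 0 to 0 for brl3-2, 0 to 16 for pSUC2-BRL3 and 0 to 32 for BRL3ox against Col-0, and 0 to 1 for pSUC2-BRL3 against brl3-2. At 28 °C these 4 ranges were 0 to 1, 0 to 1, 0 to 5 and 0 to 1. The interactions ranged from 0 to 1 for brl3-2, 0 to 2 for pSUC2-BRL3 and 0 to 29 for BRL3ox. The PSAD1 to PSAD2 ratio difference ranged from -0.15 to -0.09 and that of PSAH1 to PSAH2 from 0.12 to 0.28.

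Without the 2 doubted libraries (BRL3ox at 22 °C replicate 2 and pSUC2-BRL3 at 28 °C replicate 1), calls at 22 °C were 2 for brl3-2, 26 for pSUC2-BRL3 and 6 for BRL3ox against Col-0, and 8 for pSUC2-BRL3 against brl3-2. At 28 °C they were 1, 1, 10 and 9, and the interactions gave 2, 1 and 9. The PSAD1 to PSAD2 ratio difference was then -0.17 (exact p adjusted 0.0108). Without BRL3ox at 22 °C replicate 2 and pSUC2-BRL3 at 28 °C replicate 2 instead, the counts at 22 °C were 2, 26, 6 and 8, those at 28 °C 1, 5, 10 and 6, and those of the interactions 2, 12 and 9. The comparisons at 22 °C among Col-0, brl3-2 and pSUC2-BRL3 use none of the libraries left out here. Their counts changed only through what the fit shares over all groups, such as the spread and the scaling. Which of these moved the counts was not tested. Shares of all genes called are given above for only some of these counts. For brl3-2 against Col-0 at 22 °C that share rose too. The count for pSUC2-BRL3 against Col-0 at 22 °C has no such share beside it and is not read as a result about the members.

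DESeq2 called 8 members for pSUC2-BRL3 against Col-0 at 22 °C, 1, 2, 3 and 1 at 28 °C, and 1, 1 and 12 for the interactions. Library totals, a scaling chosen after seeing the data, gave 26 for warmth in Col-0 and 4 for pSUC2-BRL3 against Col-0 at 22 °C, and reversed LHCB2.1 (0.20), LHCB2.2 (0.02), LHCA3 (0.10), LHCA4 (0.11) and PETE1 (0.04) in Col-0. Testing nuclear protein-coding genes only gave 1 for the BRL3ox interaction. The replicate block gave 0 calls for pSUC2-BRL3 against Col-0 at 22 °C, 17 for BRL3ox and 39, 42, 44 and 44 for warmth by genotype. The numbers did not pair the libraries over the groups as a whole. With 2 libraries a group, differences in the lines below about the replicate spread were not detectable.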
